A study of Triticum aestivum with 18 samples.

Results

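The 4 loci described here, MSTRG.37420, MSTRG.32248, MSTRG.76765 and MSTRG.23759, are bread wheat genes whose deposited descriptions name purple acid phosphatases. They were chosen by identifier from the 115478 loci of the deposited expression table, after results of these data were known. The comparison that chose them is not recorded. It was taken to be that of leaves without a head against control leaves, in which such genes were known to fall, and for the 4 loci that comparison is given below as a description, with no p. Other comparisons may have entered the choice too, in which case their p-values are not independent of it. A further 64 loci carry a purple acid phosphatase description, so the 4 are part of a family of 68.

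Purple acid phosphatases are metal-containing hydrolases that cleave phosphate from organic phosphate esters at acid pH. In plants many are secreted or held in the vacuole or cell wall, and they are best known for releasing phosphate when it is scarce and for recovering it from ageing leaves. Some family members, annotated as probable inactive, lack residues thought necessary for catalysis, and what they do is less well known.

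RNA was sequenced from the flag leaf, the last leaf below the head and a main source of sugars for the grain, and from the grains, all at the grain filling stage of wheat (Triticum aestivum). The 18 libraries fell into 6 groups of 3, and the series is titled as a study of changes to source and sink. Leaves came from normally growing control plants, from plants that had lost a fraction of 0.5 of the head (partial removal) and from plants that had lost the entire head (whole removal). Grains came from control plants, from plants with partial removal, and from plants whose heads were shaded and whose leaves were all removed. Shading was applied only together with leaf removal, so their effects cannot be told apart, and no group had cutting without loss of tissue. The labels give neither the cultivar nor the plants behind each library. P-values therefore describe only how these samples scatter, which may be technical.

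Values are scaled FPKM, a read-pair density corrected for transcript length and for the size of the library, brought to a common scale over the 9 libraries of a tissue. Differences are on the log2(scaled FPKM + 1) scale, which understates changes of low genes, with moderated standard errors from limma. Genes were tested if 3 or more of the libraries fitted reached an FPKM of 1, and were called when p, adjusted over all of them by the Benjamini-Hochberg method, was under 0.05. Because RNA came from bulk tissue, fewer cells of a type and less RNA per cell cannot be told apart.

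The deposited FPKM summed to 409211 to 779076 per library. Shaded grain library 2 stood apart: loci with no gene name held 89.9% of its FPKM and 12276 loci reached an FPKM of 1, against at least 36709 in each of the other libraries. Marker genes followed the labelled tissues. The 78 leaf mesophyll loci summed to 1496 to 8189 scaled FPKM in leaf and to 3.63 to 45.2 in grain, and the 21 endosperm loci to 784 to 6985 in grain. In leaf the endosperm loci summed to 5.98, 41.2 and 61.8 in control libraries 1, 2 and 3 and to 8.56 to 14.5 in the 6 treated libraries, so control leaves 2 and 3 carried more grain transcripts than the others.

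In control flag leaves MSTRG.37420 was the most abundant of the 4 loci by FPKM, which is a level per length. It lies on chromosome arm 4AS by its gene name, was assembled with 4 transcripts, and carries the annotation of acid phosphatase activity. The scaled FPKM was 194, 180 and 248 in the 3 control leaf libraries. After partial removal it was 342, 243 and 164, and after whole removal 59.4, 79.9 and 49.4. The partial removal libraries spanned the controls, while every whole removal library lay below all 6 others.

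MSTRG.32248, on 3DL, also carries the annotation of acid phosphatase activity together with metal ion binding. The scaled FPKM was 53.0, 69.4 and 43.2 in control leaves, and 57.8, 57.2 and 45.4 after partial removal. After whole removal it was 9.59, 6.15 and 8.0. Control and partial removal overlapped, and the whole removal libraries stood clear below both.

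MSTRG.76765 is described as probable inactive purple acid phosphatase 1 and lies on a scaffold with no chromosome assigned. It nevertheless carries the annotation terms for acid phosphatase activity and metal ion binding. The scaled FPKM was 28.5, 22.5 and 24.5 in control leaves, 27.7, 27.4 and 24.0 after partial removal, and 2.44, 1.18 and 1.83 after whole removal. The first groups overlapped, and the whole removal libraries were all lower.

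MSTRG.23759, on 3AL, is described as probable inactive purple acid phosphatase 16 and is annotated with hydrolase activity alone. The scaled FPKM was 27.8, 20.2 and 22.6 in control leaves, 29.5, 29.5 and 28.1 after partial removal, and 1.86, 1.03 and 0.899 after whole removal. It was the locus of the 4 in which every partial removal library lay above every control, although by little. The whole removal libraries were again the lowest.

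**Figure D1:**
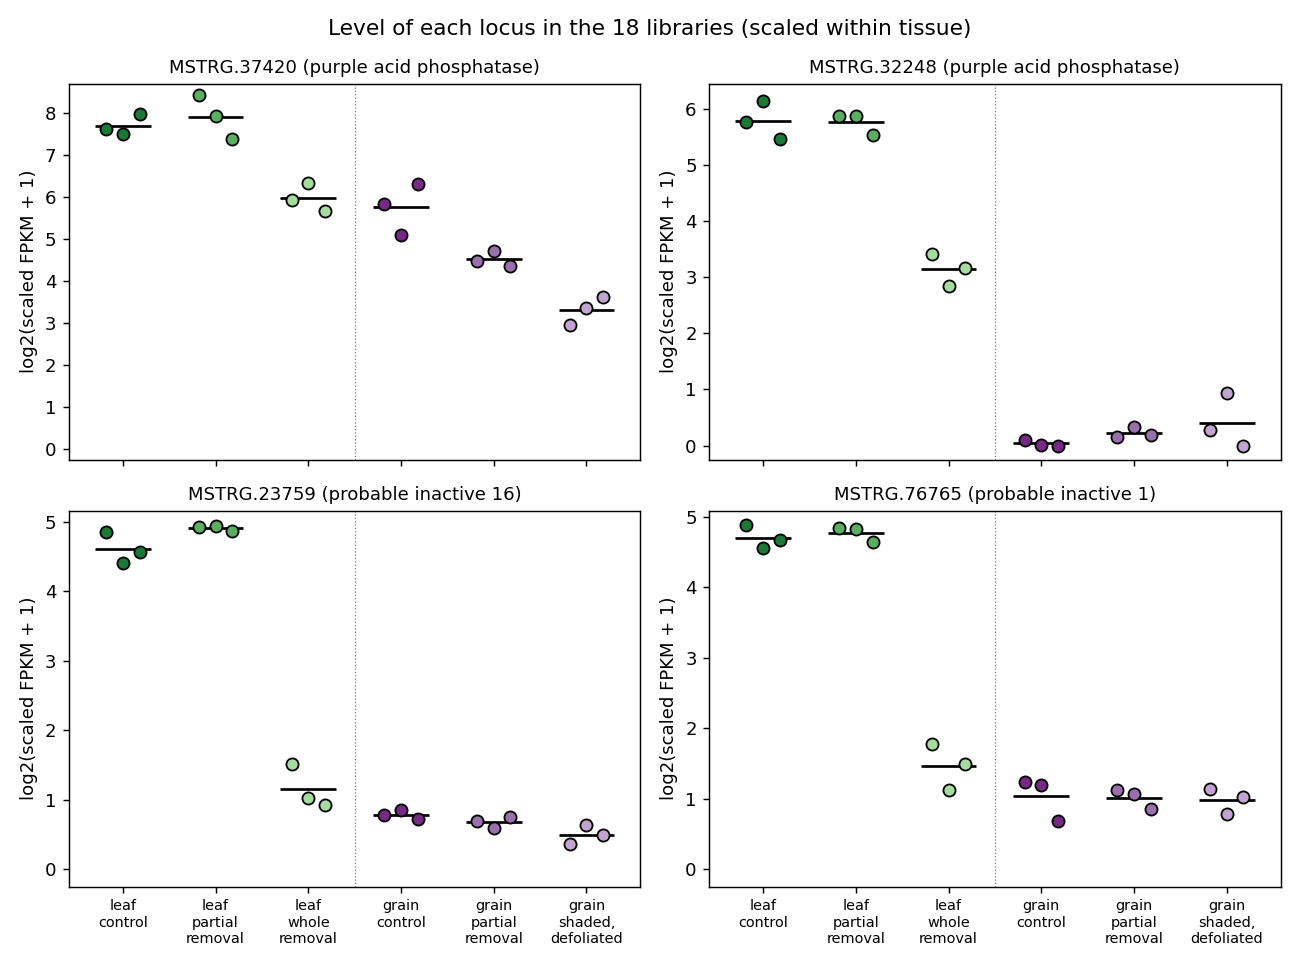
Each panel plots 1 locus, with the level as log2(scaled FPKM + 1) for each library as a point, a bar at the group mean and the groups along the horizontal axis, leaf to the left and grain to the right of the dotted line. In leaf the whole removal points lie below all others in every panel, and in grain only MSTRG.37420 is well above 0, falling from control (33.3 to 78.7 scaled FPKM) to shaded grain (6.78 to 11.2).

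Leaves after partial removal could be compared with control leaves for all 4 loci, and none was called, where 1.67% of the 48696 leaf genes tested were called (limma, with 5864 genes at an unadjusted p under 0.05 and none of the 4 loci among them). This comparison shares its control leaves with the one taken to have chosen the loci. MSTRG.37420 had a mean of 250 ± 88.9 (SD, n = 3) scaled FPKM against 207 ± 36.2 in controls, a log2 difference of 0.22 ± 0.31 SE with a 95% interval of -0.48 to 0.91 (adjusted p = 0.817). For MSTRG.32248 the log2 difference was -0.03 ± 0.22 with an interval of -0.53 to 0.48 (adjusted p = 0.975). Both intervals span 0, and the sign for MSTRG.37420 was not stable, at -0.13 without scaling between libraries and -0.64 with quantile normalization.

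The 2 remaining loci lay close to their controls too. MSTRG.76765 differed by 0.07 ± 0.18 on the log2 scale, with an interval of -0.35 to 0.49 (adjusted p = 0.914). MSTRG.23759 had a mean of 29.05 ± 0.785 against 23.6 ± 3.87 (SD, n = 3), a log2 difference of 0.30 ± 0.19 with an interval of -0.12 to 0.72 (adjusted p = 0.558). Its groups did not overlap, as in 10.9% of leaf genes with partial removal above control, but the difference did not pass the test.

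Without the head the 4 loci were lower by unequal amounts. MSTRG.37420 had a mean of 62.9 ± 15.5 scaled FPKM against 207 ± 36.2 in controls (SD, n = 3), a log2 difference of -1.72 ± 0.31 SE. MSTRG.32248 was at 7.91 ± 1.72 against 55.2 ± 13.2, a log2 difference of -2.65 ± 0.22. MSTRG.37420 thus had the smaller change in this pair and kept the higher level.

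MSTRG.76765 and MSTRG.23759 had larger differences than this pair. MSTRG.76765 was at 1.82 ± 0.628 against 25.2 ± 3.02 scaled FPKM (SD, n = 3), a log2 difference of -3.23 ± 0.18 and a ratio of control to whole removal means of 13.9. MSTRG.23759 was at 1.26 ± 0.523 against 23.6 ± 3.87, a log2 difference of -3.45 ± 0.19 and a ratio of 18.6. For the other pair those ratios were 3.30 for MSTRG.37420 and 6.97 for MSTRG.32248. Each of the 4 loci had every whole removal library below the 6 other leaf libraries, as did 12.6% of leaf genes, and 9.63% of leaf genes were called lower. Nothing is read from this, since results of this comparison were taken to have chosen the loci.

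Against partial removal leaves, the whole removal leaves gave differences of similar size. They were -1.94 ± 0.31 for MSTRG.37420, -2.62 ± 0.22 for MSTRG.32248, -3.30 ± 0.18 for MSTRG.76765 and -3.75 ± 0.19 for MSTRG.23759 on the log2 scale. This comparison uses the same whole removal libraries, so it is no separate support, and the background of genes called lower in it was 8.66%. Whole removal leaves were thus the low group for every one of the 4 loci, whichever leaf group they were set against.

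**Figure D2:**
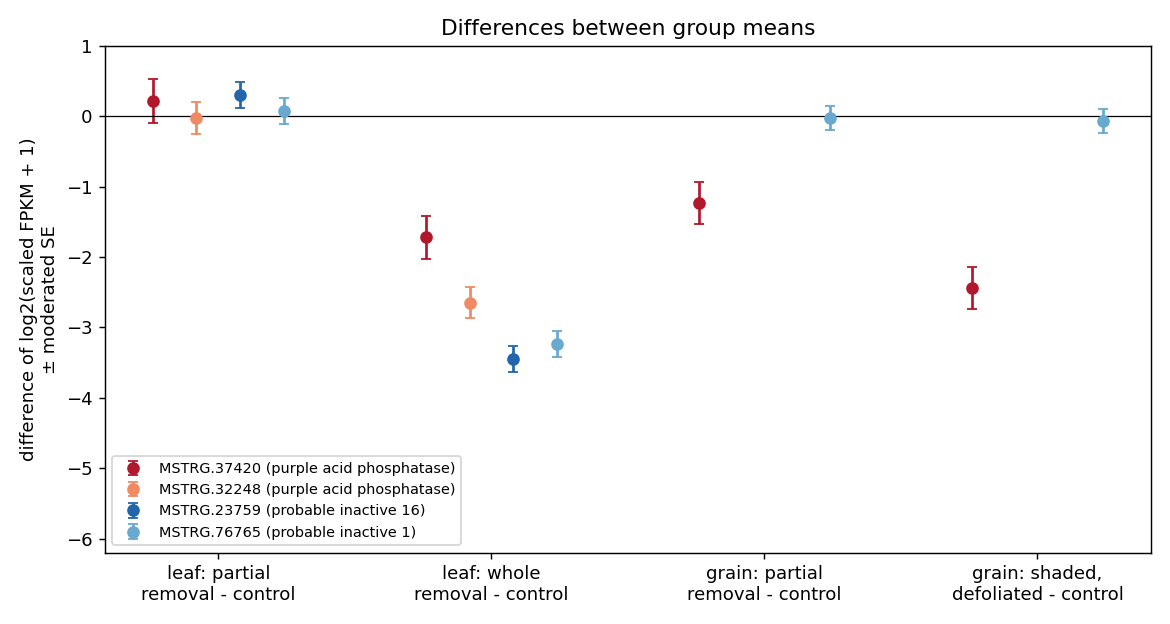
The vertical axis is the difference of group means on the log2(scaled FPKM + 1) scale, with bars of 1 moderated standard error, for 4 comparisons along the horizontal axis and 1 colour per locus. In leaf the partial removal differences lie between -0.03 and 0.30 and the whole removal differences between -3.45 and -1.72, and in grain MSTRG.37420 lies at -1.23 after partial removal and -2.44 after shading with leaf removal.

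Of the following measures of the leaf libraries, only the first set whole removal leaves apart from both other groups. The summed level of the 3 loci described by leaf senescence terms was 161 to 238 scaled FPKM in controls, 224 to 374 after partial removal and 39.0 to 84.5 after whole removal, with none of the 3 loci at 0 in any leaf library. Loci with no gene name held 13.9% to 19.7% of FPKM in control leaves and 25.8% to 34.2% in the 6 treated leaves, so that share separated controls from both treatments. Of the 21 endosperm loci 18 were at 0 in control leaf library 1, against 4 and 5 in the other controls and 17 or 18 in the treated leaves. The part of these measures in the result was not tested.

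A ratio of loci within a library does not depend on scaling between libraries. MSTRG.37420 was 6.98 to 11.0 times as high as MSTRG.23759 in control leaves and 5.84 to 11.6 times as high after partial removal. After whole removal it was 31.9 to 77.8 times as high. The whole removal ratios all lay above those of the 6 other leaf libraries. MSTRG.37420 and MSTRG.23759 had the smallest and the largest fall of the loci described, in the comparison taken to have chosen them. Nothing is read from this separation.

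As a share of the FPKM of all 68 family loci, MSTRG.37420 held 24.3% to 31.0% in control leaves, 25.9% to 33.9% after partial removal and 20.0% to 26.2% after whole removal. These ranges overlap. The share of MSTRG.23759 was 2.73% to 3.51% in controls and 0.337% to 0.734% after whole removal. That of MSTRG.76765 was 3.05% to 3.59% in controls and 0.388% to 0.961% after whole removal. For MSTRG.32248 the share was 5.39% to 9.38% in controls and 2.02% to 3.78% after whole removal. Each of these shares but that of MSTRG.37420 was lower in every whole removal library than in every control. Nothing is read from this, since this comparison was taken to have chosen the loci. By scaled level rather than share, 29 of the 37 other family loci tested in leaf also had every whole removal library below every control.

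The family holds 3 more loci described as probable inactive, all copies of purple acid phosphatase 28, which are named here after their values were seen. The copy on 7BL (MSTRG.69008) had 1.92 ± 0.488 scaled FPKM in control leaves and 1.92 ± 0.260 after whole removal (SD, n = 3), a log2 difference of 0.01 with an interval of -0.32 to 0.34 (limma, adjusted p = 0.968). The copy on 7AL (MSTRG.65389) had 0.730 ± 0.102 and 1.01 ± 0.420, a log2 difference of 0.19 with an interval of -0.21 to 0.60 (adjusted p = 0.491). The 7DL copy (MSTRG.72563), at 0.240 ± 0.0651 and 0.438 ± 0.156, was too low to be tested. On this scale loci at such low control levels could not fall as far as MSTRG.76765 and MSTRG.23759 did, even to 0. The sizes of the differences are therefore not compared.

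In control grains the 4 loci were lower than in control leaves, and 1 of them remained abundant. On a scale common to all 18 libraries, which assumes that most genes are alike in leaf and grain, MSTRG.37420 had 185 ± 33.1 scaled FPKM in control leaf and 62.6 ± 25.6 in control grain (SD, n = 3), a log2 difference of 1.62 ± 0.31 SE. For the others the log2 difference of leaf minus grain was 5.58 for MSTRG.32248, 3.59 for MSTRG.23759 and 3.42 for MSTRG.76765. All 4 were higher in leaf, where 35.6% of the 61068 genes tested were called higher (69.1% were called in either direction). Control leaves also entered the comparison taken to have chosen the loci, so these differences are given as a description, with no p.

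On the common scale the groups could be put in order for MSTRG.37420. Partial removal leaf had 225 ± 78.6, control leaf 185 ± 33.1, control grain 62.6 ± 25.6, whole removal leaf 55.3 ± 12.9, partial removal grain 24.7 ± 3.03 and shaded grain 10.2 ± 2.37 scaled FPKM (SD, n = 3 each). Neighbours overlapped in partial removal and control leaf, and in control grain (37.5 to 88.7) and whole removal leaf (43.9 to 69.3). The other steps in this order showed no overlap, and whole removal leaf lay within the range of control grain.

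The other loci had low levels in grain. MSTRG.32248 did not exceed 0.924 scaled FPKM, a value reached in shaded grain library 2, and it was listed at 0 in control grain library 3 and shaded grain library 3. MSTRG.23759 was at 0.727, 0.799 and 0.653 in control grain, at 0.616, 0.505 and 0.683 after partial removal and at 0.293, 0.550 and 0.410 in shaded grain. Its shaded libraries all lay below its controls, but it reached too few values of 1 to be tested, as did MSTRG.32248. MSTRG.76765 was at 1.36, 1.30 and 0.609 in control grain, 1.17, 1.10 and 0.814 after partial removal and 1.20, 0.723 and 1.03 in shaded grain, with all groups overlapping.

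In grains of shaded, defoliated plants MSTRG.37420 fell. Control grains had 55.9, 33.3 and 78.7 scaled FPKM, and shaded grains had 6.78, 9.27 and 11.2. The groups were far apart, with the lowest control above the highest shaded library, as in 10.7% of the grain genes tested. The log2 difference was -2.44 ± 0.30 SE with a 95% interval of -3.11 to -1.76 (limma, adjusted p = 0.00914), and the control mean was 6.15 times the shaded mean. No leaf library enters this comparison, and its p is independent of the choice of the locus only if grain results did not enter that choice.

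Of the 2 loci tested in grain, MSTRG.37420 was therefore called lower, against 1.45% of the 45784 grain genes tested, and MSTRG.76765 was not, with a log2 difference of -0.06 ± 0.17 (adjusted p = 0.896). Without shaded grain library 2, the library that stood apart, the difference of MSTRG.37420 was -2.47 ± 0.35 (adjusted p = 0.0318). Leaving out any single grain library gave log2 differences from -2.76 to -2.15 and adjusted p from 0.00503 to 0.0318, so the call did not rest on 1 library.

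After partial removal of the head the remaining grains had 21.2, 25.3 and 19.4 scaled FPKM of MSTRG.37420. These lay below every control and above every shaded library, an order without overlap that 0.968% of grain genes showed. The difference from control was -1.23 ± 0.30 on the log2 scale with an interval of -1.91 to -0.56, and it was not called (adjusted p = 0.348). Only 0.0306% of grain genes, 14 in all, were called in this comparison, with 2945 at an unadjusted p under 0.05, and 7.63% of genes had every partial removal library below every control. MSTRG.76765 had a difference of -0.03 ± 0.17 (adjusted p = 0.996). Both grain comparisons share the control grains.

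Whether partial removal acted differently in leaf and grain was tested for each locus. In a fit of 12 libraries the difference between the leaf and grain effects was 1.47 ± 0.47 SE on the log2 scale, with an interval of 0.45 to 2.496 (adjusted p = 0.199). With quantile normalization this value was 0.31. It was -0.24 for MSTRG.32248, 0.44 for MSTRG.23759 and 0.11 for MSTRG.76765 (adjusted p = 0.722, 0.304 and 0.884). MSTRG.32248 and MSTRG.23759 passed the filter of this fit through leaf libraries alone. Their low grain levels left little room for a fall in grain on this scale, so for them the tissues are hardly compared. None of the 4 was called, against 0.497% of 57698 genes. In limma 7523 genes had an unadjusted p under 0.05, with MSTRG.37420 and MSTRG.23759 among them.

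Within the family, MSTRG.37420 held 16.3% to 35.5% of purple acid phosphatase FPKM in control grain, 9.88% to 18.2% after partial removal and 4.49% to 9.76% in shaded grain. The shaded and control shares did not overlap, and an exact two-sided permutation test of 3 against 3 libraries gave p = 0.1, the smallest this design allows. The other 64 loci together had 131 to 169 scaled FPKM in control grain, 112 to 175 after partial removal and 98.9 to 143 in shaded grain, and these ranges overlapped.

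Endosperm markers had the same order of groups. The 21 endosperm loci, which include gliadins and glutenins, the storage proteins of wheat endosperm, summed to 4976 to 6985 scaled FPKM in control grain, 2075 to 2651 after partial removal and 784 to 1943 in shaded grain, with 4 to 6 of the loci at 0 in a library. The 6 aleurone and embryo loci summed to 364 to 810, 457 to 509 and 248 to 490, with control grain overlapping both treated groups. Loci with no gene name held 55.4% of FPKM in control grain library 1 and 89.9% in shaded grain library 2. The part of these in the lower level of MSTRG.37420 was not tested.

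Most family members measured in leaf were lower after whole removal. Of the other 64 loci, 37 were tested in leaf and 27 were not, the highest level of those in any library being an FPKM of 2.78. After whole removal 22 of the 37 fell, 1 rose and 14 were not called, beside 9.63% of leaf genes called lower and 10.4% called higher. The median log2 difference of the 37 was -0.98 and that of all leaf genes -0.01. A locus could pass the filter through control leaves alone, and of the 25 with an FPKM of at least 1 in every whole removal library 11 were called lower. That loci of this family fell was known when the 4 loci were chosen. The count was 20 of 36 without control leaf library 2, and likewise 20 of 36 without library 3, the libraries that held endosperm transcripts.

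Leaves after partial removal again gave no call, with 0 of the 37 called (1.67% of all leaf genes) and 3 at an unadjusted p under 0.05 in limma. Against partial removal leaves, 19 of the 37 were lower in whole removal leaves, as were 8.66% of all leaf genes. In grain 19 of the 64 were tested. None was called after partial removal, where 0.0306% of all grain genes were called and 2 of the loci had an unadjusted p under 0.05. None was called in shaded grain either, where 1.45% of all grain genes were called lower and 3 of the loci had an unadjusted p under 0.05. Without shaded grain library 2 the count in shaded grain was likewise 0, so MSTRG.37420 was the 1 locus of the 21 family loci tested in grain that was called.

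Among the loci that fell in leaf were copies described as purple acid phosphatase 10, in Arabidopsis a secreted enzyme of the root surface induced by phosphate shortage. The copy on 3DL (MSTRG.31544) had 50.3 ± 8.13 scaled FPKM in control leaves and 8.96 ± 1.13 after whole removal, a log2 difference of -2.36. Those on 3AL (MSTRG.23358) and 3B (MSTRG.27321) differed by -2.09 and -2.43. Other loci that fell were MSTRG.47232 on 5AS, at 34.3 in control and 7.17 after whole removal, MSTRG.28097 on 3B, at 33.6 and 7.83, and MSTRG.50997 on 5BS, at 25.6 and 4.26 mean scaled FPKM. The log2 differences were -3.14 for MSTRG.52236 and -2.71 for MSTRG.52981, both on 5DL.

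Purple acid phosphatase 26, in Arabidopsis a major vacuolar and secreted acid phosphatase that acts in phosphate recovery from senescing leaves, did not pass the test. Its copy on 7AL (MSTRG.64488) had 17.4 ± 2.34 scaled FPKM in control leaves and 16.2 ± 1.70 after whole removal (SD, n = 3), a log2 difference of -0.10 with an interval of -0.46 to 0.26 (adjusted p = 0.715). That on 7DL (MSTRG.72083) had 16.2 ± 2.38 and 11.8 ± 2.24, a difference of -0.44 with an interval of -0.87 to -0.01 (adjusted p = 0.142). Both intervals lie above -1.72, the estimate for MSTRG.37420 (interval -2.41 to -1.02) and the least negative of the 4 loci. Since the 4 loci were taken to have been chosen in this comparison, nothing is read from that gap. The 1 locus called higher was MSTRG.51000 on 5BS, with 4.07 ± 0.891 in control and 11.3 ± 3.68 after whole removal, a log2 difference of 1.24 ± 0.24 (adjusted p = 0.00820).

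**Figure D3:**
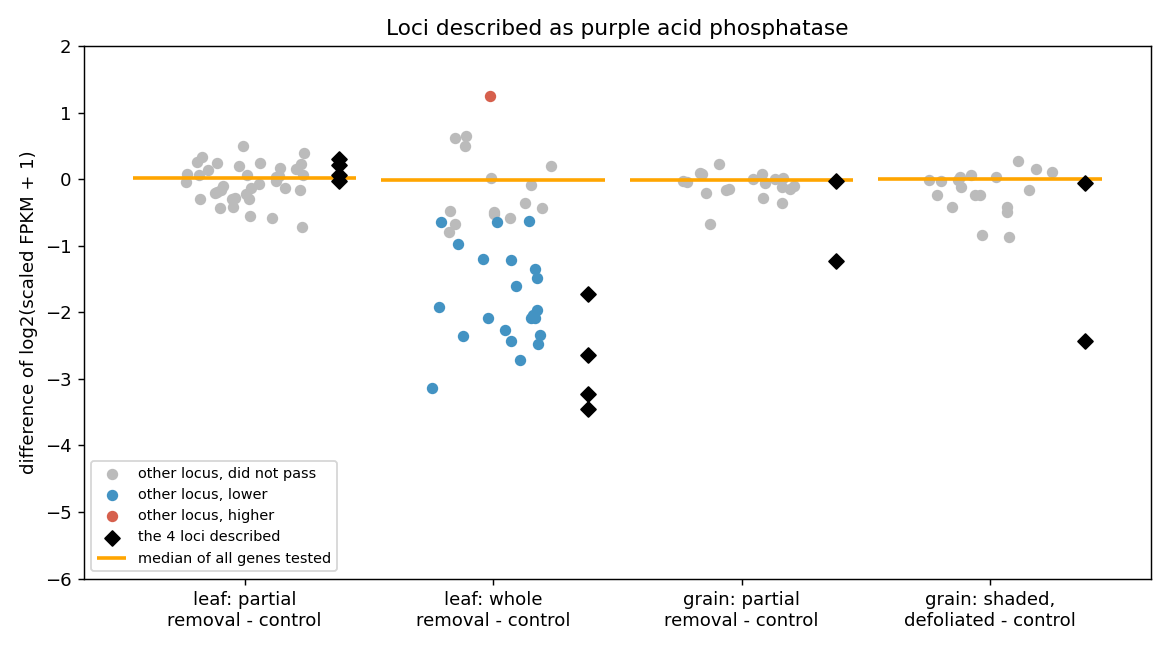
The vertical axis is the difference of group means on the log2(scaled FPKM + 1) scale for each purple acid phosphatase locus tested, in 4 comparisons along the horizontal axis, with black diamonds for the 4 loci, blue or red for other loci called lower or higher, grey for those not called and an orange line at the median of all genes tested. Most leaf loci lie below 0 after whole removal, where 22 of 37 others were called lower, and near 0 after partial removal, where none was called.

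The summed level of the 68 loci was 740 to 801 scaled FPKM in control leaves, 635 to 1008 after partial removal and 247 to 305 after whole removal. The sum of the 64 others alone was 448 to 489, 373 to 551 and 181 to 217. Both sums were lower in every whole removal library than in the 6 other leaf libraries. In grain the family sum was 189 to 222 in control, 139 to 196 after partial removal and 110 to 151 in shaded grain, so control and shaded grain did not overlap. That gap was absent from the sum of the other 64 loci given above.

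**Figure D4:**
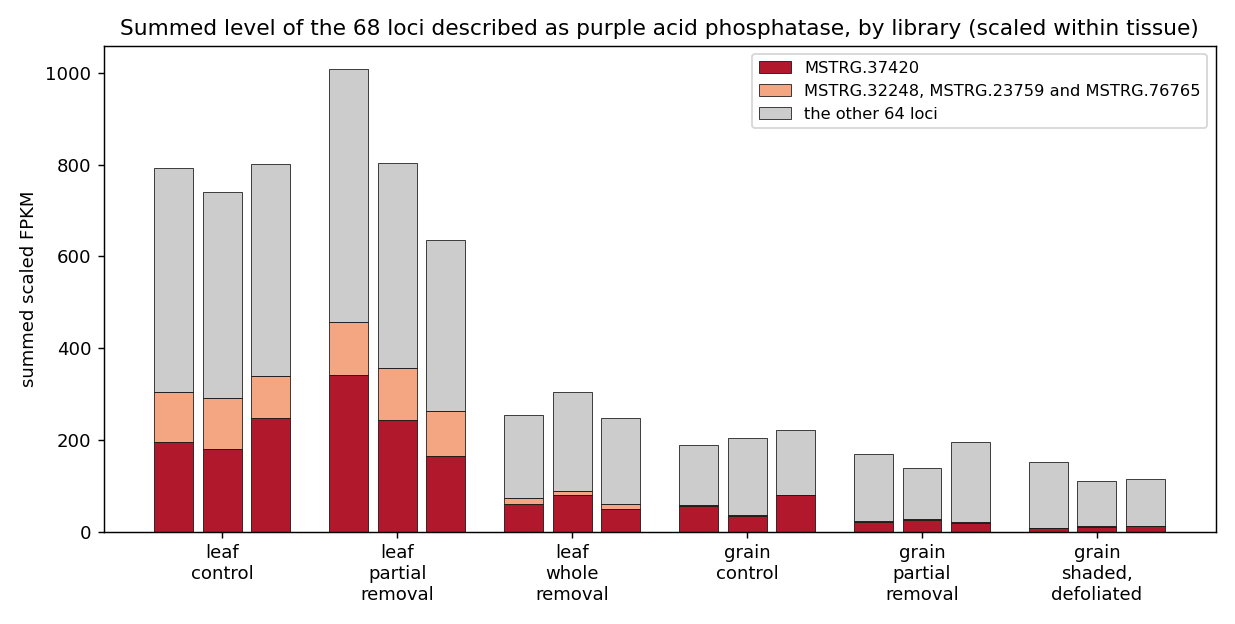
Bars start at 0 and give, for each of the 18 libraries, the summed scaled FPKM of the 68 purple acid phosphatase loci on the vertical axis, split into MSTRG.37420, the 3 other named loci and the remaining 64 loci. Leaf and grain were scaled separately. The 3 whole removal leaf bars reach 247 to 305 against 635 to 1008 in the other leaves.

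Nearness in sequence could not be examined here, but the table assigns orthology groups. MSTRG.37420 belongs to an orthology group shared with 2 other loci, on 2AL and 2DL, whose highest FPKM in any library was 0.0180 and 0.0230. Among the loci assigned to that group, the abundant transcript in these tissues was thus that of the 4AS locus. MSTRG.32248, MSTRG.23759 and MSTRG.76765 carry no orthology group, so assignment is incomplete and loci of the group may be missed. Homoeologous copies are alike enough to exchange reads, which leaves the arm of each copy uncertain.

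The genes whose pattern was most like each locus were taken by Pearson r over the 9 leaf libraries, a description that mostly reflects the group means these libraries share. The 4 loci had r of 0.908 to 0.996 with one another, lowest for MSTRG.37420 with MSTRG.32248 and highest for MSTRG.23759 with MSTRG.76765. For MSTRG.37420 the most alike was an S-like RNase, an RNA-degrading enzyme (MSTRG.62315, r = 0.995). Next came the acyl-CoA dehydrogenase IBR3 (MSTRG.17704, 0.992) and an acyl-CoA oxidase (MSTRG.66540, 0.990), an enzyme of fatty acid beta-oxidation in peroxisomes. An Iojap protein (MSTRG.53833) and a lipocalin (MSTRG.62866) followed, each at 0.989. In the 9 grain libraries MSTRG.17704, MSTRG.66540, MSTRG.53833 and MSTRG.62866 had r of -0.55, 0.75, -0.31 and -0.42 with it, so the likeness in leaf did not carry over to grain in most of them.

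For MSTRG.32248 the most alike was another family member, MSTRG.28097 (r = 0.993), followed by phospholipase A(1) LCAT3, which cleaves phospholipids (MSTRG.54017, 0.989). The chloroplast UTP-glucose-1-phosphate uridylyltransferase 3, which makes UDP-glucose for sulfolipid synthesis (MSTRG.4522), and a glyoxysomal processing protease (MSTRG.8973) each had 0.986, and beta-D-xylosidase 6 (MSTRG.10446) had 0.984. For MSTRG.76765 the nearest were another LCAT3 copy (MSTRG.49218, 0.993), the family member MSTRG.50997 (0.991) and the sulfoquinovosyl transferase SQD2, the last enzyme of sulfolipid synthesis (MSTRG.27181, 0.990). A second uridylyltransferase copy (MSTRG.458) and the protease MSTRG.8973 followed, also at 0.990.

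For MSTRG.23759 the nearest were the sugar transporter SWEET2 (MSTRG.76163, 0.991), MSTRG.50997 (0.991), a dihydropyrimidinase, an enzyme of pyrimidine breakdown (MSTRG.28419, 0.989), UDP-sulfoquinovose synthase, an earlier enzyme of sulfolipid synthesis (MSTRG.7695, 0.989), and phosphatidylserine decarboxylase PSD2 (MSTRG.23561, 0.988).

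Other genes of phosphate supply were sparse among the described loci. Of 8 phosphate transport loci 3 were tested in leaf, and none was called in the 3 leaf comparisons or had an unadjusted p under 0.05 in limma. The most abundant (MSTRG.52891, 5DL) had 63.3 ± 51.3 scaled FPKM in control, 85.8 ± 3.55 after partial removal and 36.8 ± 31.4 after whole removal (SD, n = 3), with a spread as large as the differences. The chloroplast phosphate transporter 2-1 on 6AL (MSTRG.55407) had 8.66 ± 2.07, 9.57 ± 3.23 and 5.78 ± 2.05. In the SPX list, whose proteins sense phosphate status, none of the 3 loci was called between whole removal and control leaves (1 at an unadjusted p under 0.05), and 2 copies of SPX domain-containing protein 4 (MSTRG.50051 and MSTRG.53085) were higher in whole removal than in partial removal leaves, where 7.87% of all leaf genes were called higher.

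Of 12 loci for lipid remodelling, the exchange of phospholipids for lipids without phosphate, 6 were tested in leaf. After whole removal 2 were called lower and 1 higher, where 9.63% of leaf genes were called lower and 10.4% higher. After whole removal SQD2 (MSTRG.27181) fell to 5.47 ± 2.18 from 95.3 ± 4.24 scaled FPKM, a log2 difference of -3.96 ± 0.25 (adjusted p = 6.4e-05). Non-specific phospholipase C1 (MSTRG.52046, 5DL) fell to 124 ± 11.7 from 331 ± 46.1, a log2 difference of -1.41 ± 0.20 (adjusted p = 0.00241). A copy of monogalactosyldiacylglycerol synthase 1 (MSTRG.48437), which makes a main chloroplast galactolipid, rose to 4.78 ± 0.742 from 3.16 ± 0.253 (log2 0.47 ± 0.14, limma adjusted p = 0.0475). The 3 loci not called included its other copies, MSTRG.43906 (log2 0.45 ± 0.15, adjusted p = 0.0634) and MSTRG.51858 (0.27 ± 0.21, adjusted p = 0.415). The third was the 5BL copy of phospholipase C1 (MSTRG.49254), with a log2 difference of -0.56 ± 0.21 (adjusted p = 0.0875). No locus of these lists was called after partial removal in leaf, where 2 had an unadjusted p under 0.05 in limma. None was called in the grain comparisons, where 1 had such a p after partial removal and 2 in shaded grain. Of all genes tested, 1.67% were called in partial removal leaf, 0.0306% in partial removal grain and 1.45% lower in shaded grain. With so few loci tested, no call is what such shares would give.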

How the data were processed

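Poly(A) RNA libraries (TruSeq v2) were sequenced in paired reads on an Illumina HiSeq, per the labels' protocols. The authors deposited 1 table of gene FPKM for all 18 libraries. The submitters' processing notes name HISAT, StringTie and edgeR, with no versions. The genome build is not given in the sources used here, and gene names are of the TGACv1 form, from which chromosome arms were read. Of 115478 loci 12901 carry a description and 18449 no gene name. Read counts were not used, so depth is unknown and precision rests on the spread between libraries. Strand is not stated, and near-identical copies can share reads.

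For scaling, each gene listed above 0 in every library of a fit (70849 genes in leaf, 71470 in grain) was divided by its geometric mean, and the median of these ratios gave the library's factor. Log2(scaled FPKM + 1) was fitted with limma 3.58.1 in R 4.3.3, with 1 mean per group, variances moderated along a trend on mean level, after a filter of FPKM at least 1 in at least 3 libraries. Fits held the 9 libraries of a tissue, all 18 for leaf against grain, and 12 for the difference of partial removal effects. Calls used a Benjamini-Hochberg adjusted p under 0.05. The procedure was tested on simulated data.

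The 4 loci, the gene lists (text patterns on descriptions), the markers, tests and settings were chosen with earlier results of these data known. Named were the 4 loci and, for each of the 4, the 5 described genes with the highest r. Of the 32 other family members with a group mean of at least 5 scaled FPKM only some are described above. Those described do not represent the rest. The rest include MSTRG.57703, at 18.6 in control leaves and 9.10 after whole removal, and MSTRG.51336, at 8.37 and 12.2 mean scaled FPKM. MSTRG.51000, the 1 family locus called higher, also reached that mean. Named list genes are the most abundant or called ones, and further copies of a called one. Lists for other acid phosphatases and for ribonucleases matched no described locus by their patterns, although an S-like RNase appears among the genes of like pattern. No library held values identical to another's (highest r 0.973). Alternatives tried were no scaling, quantile normalization, a pseudocount of 0.1, no filter, no trend, the library number as a block, and leaving out each library.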

Additional observations from a re-analysis of the deposited data

How the results depend on the processing

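No call of the 4 loci changed in the 7 comparisons under any setting tried or with any library left out. For single loci, 135 values kept their direction and side of the threshold under other settings and 9 changed sign, none of them called. The counts over all genes depended far more on the settings, and the cause was not tested. Depth is unknown, and 3 libraries a group limit what could be called.

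Without scaling, 2046 genes were called after partial removal in leaf (811 with scaling), 108 after partial removal in grain (14), 510 in shaded grain (804) and 3866 for the difference of the partial removal effects (287). The share called higher moved to 28.2% from 68.8% in partial removal leaf, to 32.7% from 51.8% in whole removal leaf, to 65.6% from 47.6% for whole against partial removal, to 55.6% from 21.4% in partial removal grain, to 6.47% from 17.4% in shaded grain, to 64.1% from 51.5% for leaf against grain and to 11.1% from 56.1% for the difference of effects. The median over all genes then lay at -0.23, -0.15, 0.08, 0.18, -0.31, 0.27 and -0.37 on the log2 scale in those comparisons. Without the filter 360 genes were called in partial removal leaf, 7 in partial removal grain and 375 in shaded grain. For the difference of effects quantile normalization gave 455 and a pseudocount of 0.1 gave 87.

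Sign changes without scaling were to -0.13 (MSTRG.37420), -0.030 (MSTRG.23759) and -0.26 (MSTRG.76765) in partial removal leaf, to 0.12 (MSTRG.76765) in partial removal grain, and to -0.023 (MSTRG.23759) and -0.39 (MSTRG.76765) for the difference of effects. With quantile normalization they were to -0.64 (MSTRG.37420) and -0.12 (MSTRG.76765) in partial removal leaf and to -0.11 (MSTRG.76765) for the difference of effects.

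Leaving out 1 library at a time gave 205 to 855 genes in partial removal leaf, 5652 to 9646 in whole removal leaf, 4002 to 9617 for whole against partial removal, 8 to 46 in partial removal grain, 311 to 613 in shaded grain and 90 to 516 for the difference of effects. Of the values of single loci 10 changed sign and 254 did not. In partial removal leaf these ran from -0.038 to 0.49 for MSTRG.37420, -0.19 to 0.15 for MSTRG.32248 and -0.0045 to 0.16 for MSTRG.76765. For MSTRG.76765 they ran from -0.21 to 0.073 in partial removal grain and from -0.24 to 0.048 in shaded grain.

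Library numbers did not pair the samples: same-numbered libraries of different groups deviated with r of -0.167 to 0.118 in leaf and -0.367 to 0.0969 in grain. With the replicate number as a block, 3 genes were called in partial removal grain, 376 in shaded grain and 135 for the difference of effects, and no call of the 4 loci changed.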

Other observations

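Several other purple acid phosphatase loci were transcripts of the grain. The loci on 5DL (MSTRG.54141), 5BL (MSTRG.48628) and 7AS (MSTRG.66451) had means of 38.8, 29.96 and 14.2 scaled FPKM in control grain. In leaf MSTRG.54141 and MSTRG.48628 were listed at 0 in all 6 treated libraries. In control leaf libraries 2 and 3, which also held more endosperm transcripts, MSTRG.54141 was at 0.209 and 0.576 scaled FPKM and MSTRG.48628 at 0.237 and 0.415. None of the 3 loci was called in shaded grain, where MSTRG.37420 fell.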
